A study of Homo sapiens with 8 samples.

Results

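The effect of GNE-781 on open chromatin was read within JJN3, an established human multiple myeloma cell line, in 4 of the 8 libraries of the series. They were chosen by their labels alone: JJN3 cells treated for 48 h with GNE-781 at 40 nM, JJN3 cells treated with the combination of GNE-781 at 40 nM and pomalidomide at 200 nM, JJN3 cells given the solvent DMSO, and JJN3 cells treated with pomalidomide at 200 nM. The libraries were paired by pomalidomide status, so that GNE-781 was set against DMSO and the combination against pomalidomide. The assay was ATAC-seq, which reads out where a transposase can cut DNA that is free of packed nucleosomes, over 62528 peaks, and the other 4 libraries are of KMS11, a second myeloma line treated the same way. Each treatment had 1 library per line. The labels do not give separate cultures, so p-values measure only how these samples spread, and that spread may be technical. It also takes in any difference of the GNE-781 effect between the pairs, which differ in pomalidomide and are not replicates. All cells were grown with 5% fetal bovine serum. Cells with forced expression of BATF or eGFP, named in the design text, are not analysed here.

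GNE-781 occupies the bromodomains of EP300 and CREBBP, related acetyltransferases that acetylate histones at enhancers and promoters, and keeps those domains from binding acetylated lysine. Enhancers that carry this acetylation lie mostly away from gene starts, and in plasma cells they serve genes such as IRF4 and MYC, on which myeloma cells depend. Pomalidomide has cereblon, a substrate receptor of a ubiquitin ligase, mark IKZF1 and IKZF3 for degradation.

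The promoters below belong to called peaks that cover a RefSeq gene start, and they are shown because these are the called peaks for which both the position and the sequence of a gene start were at hand. Each is the 250 bases before the start, 5′ to 3′ on the strand of the gene, from RefSeq with the build GRCh38.p14. SLC29A1 and TRIM14 were less accessible with GNE-781, and TRIM40, ZNF175 and TEF were more accessible. Capitals mark matches, on either strand, to 8 motifs. AP-1 factors, dimers of JUN and FOS proteins, were searched as TGANTCA, and the element bound by CREB proteins (CRE) as TGACGTCA. The core of ETS factors was searched as CCGGAAG and the core of MAF proteins as TGCTGAC. The GC box of SP1 and related factors was searched as GGGCGG, and the E-box of basic helix-loop-helix factors, MYC among them, as CACGTG. The CCAAT box, bound by NF-Y, was searched by the letters of its name, and the TATA box of core promoters as TATAAA.
SLC29A1 (chr6:44219365-44219614, plus strand): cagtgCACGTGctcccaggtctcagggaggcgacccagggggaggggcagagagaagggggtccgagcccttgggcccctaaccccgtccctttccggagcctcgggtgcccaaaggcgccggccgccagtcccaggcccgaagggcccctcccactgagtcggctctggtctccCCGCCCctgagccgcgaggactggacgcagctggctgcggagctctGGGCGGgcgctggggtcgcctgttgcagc
TRIM14 (chr9:98119223-98119472, minus strand): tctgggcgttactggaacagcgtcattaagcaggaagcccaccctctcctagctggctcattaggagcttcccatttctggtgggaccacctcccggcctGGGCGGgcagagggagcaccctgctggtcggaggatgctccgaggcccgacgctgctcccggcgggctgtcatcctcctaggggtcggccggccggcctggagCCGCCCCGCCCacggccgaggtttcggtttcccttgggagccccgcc
TRIM40 (chr6:30136483-30136732, plus strand): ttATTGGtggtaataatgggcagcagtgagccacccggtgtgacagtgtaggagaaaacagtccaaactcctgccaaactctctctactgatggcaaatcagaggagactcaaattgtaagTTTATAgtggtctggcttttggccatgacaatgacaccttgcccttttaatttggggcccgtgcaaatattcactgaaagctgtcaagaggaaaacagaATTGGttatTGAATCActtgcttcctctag
ZNF175 (chr19:51571033-51571282, plus strand): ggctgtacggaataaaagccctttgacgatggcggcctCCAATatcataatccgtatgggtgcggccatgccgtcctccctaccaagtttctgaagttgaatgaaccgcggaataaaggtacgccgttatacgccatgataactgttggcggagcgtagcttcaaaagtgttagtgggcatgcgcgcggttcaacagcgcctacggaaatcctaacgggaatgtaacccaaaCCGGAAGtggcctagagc
TEF (chr22:41367205-41367454, plus strand): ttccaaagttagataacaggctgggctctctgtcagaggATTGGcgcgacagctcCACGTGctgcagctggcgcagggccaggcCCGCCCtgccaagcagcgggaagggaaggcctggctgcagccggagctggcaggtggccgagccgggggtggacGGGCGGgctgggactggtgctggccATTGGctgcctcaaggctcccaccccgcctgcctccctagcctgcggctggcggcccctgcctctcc
Both printed promoters that lost accessibility held GC boxes, and so did TEF, which gained it. GC boxes were held by 70.8% of 13857 promoters in tested promoter peaks, and a pair of them in TRIM14 overlap each other. All 3 printed promoters that gained accessibility held a CCAAT box, against 33.6% of all promoters. The TRIM40 promoter held a match to AP-1, a motif in 3.31% of promoters, and a TATA box, found in 4.21%. An ETS match was found in ZNF175 and in 16.1% of all promoters, and an E-box in SLC29A1 and TEF, against 8.86% of all promoters. CRE and MAF core letters, in 2.94% and 2.5% of promoters, were in none of the 5 windows.

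The 4 JJN3 libraries held 1582277 counts with GNE-781, 2060036 with the combination, 1366628 with DMSO and 3218581 with pomalidomide, and the median peak held 14, 19, 12 and 27 counts in the same libraries. The shallowest and the deepest library are thus both on the side without GNE-781. Promoter peaks held between 47.5% and 50% of the counts of a library. Plasma cell identity was checked at promoter peaks: 8 of 10 plasma cell markers had one, with summed levels of 249.9 and 243.7 CPM with GNE-781 and the combination, against 259 and 256.6 CPM with DMSO and pomalidomide. No promoter peak was annotated to TNFRSF17 or JCHAIN. For all markers here, promoter peaks were assigned by the symbol of the nearest transcript. One annotated to a neighbouring gene, as that of EP300 was, would be missed. SDC1, which encodes CD138, was accessible at 45.3, 37.5, 57.2 and 46.7 CPM in that order. A promoter peak was present for 4 of 12 B cell markers (CD79B, CR2, BANK1 and EBF1), with none at MS4A1 or PAX5. Their sum was 69.3 and 56.7 CPM with GNE-781 and the combination, against 48.4 and 46.4 CPM with DMSO and pomalidomide, and its part in the results was not tested. Of 15 T and NK cell markers 4 had a promoter peak (CD8A, GATA3, TBX21 and BCL11B), with none at CD3D, CD3E or CD3G. Their summed levels lay between 34.6 and 40.4 CPM. Promoter peaks were found for 2 of 12 myeloid markers (CEBPA and CD68), with none at CD14 or LYZ, at 23.5 to 37.7 CPM. They were found for 2 of 10 erythroid markers (HBB and TFRC), with none at GATA1, at 39.7 to 60.2 CPM. Of 12 stromal and endothelial markers 3 had one (COL1A1, COL1A2 and PECAM1), with none at PDGFRB or CDH5, at 34.1 to 42.9 CPM. CPM are counts brought to a common library size, with edgeR's TMM factors.

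With GNE-781, more peaks fell than rose, an excess that was absent when counts were scaled by library totals, and the changed peaks lay mostly away from promoters. Of 59332 tested peaks, 173 changed (0.292%): 106 fell (0.179%) and 67 rose (0.113%). Those that fell did so by a median of 1.2 on the log2 scale, between 0.78 and 2.5, and 86 fell at least 2-fold. Those that rose had a median log2 change of 1.28, between 0.77 and 3.55, and 57 rose at least 2-fold. At the peaks that fell the median level was 14.2 CPM with GNE-781 and 10.1 CPM with the combination, against 33 CPM with DMSO and 24.6 CPM with pomalidomide. At the peaks that rose it was 17 and 26 CPM with GNE-781 and the combination, against 8.07 and 9.92 CPM with DMSO and pomalidomide, while over all tested peaks the medians were 9.44, 9.61, 9.54 and 9.28 CPM. Calls are at an adjusted p under 0.05 (edgeR quasi-likelihood, Benjamini-Hochberg over all tested peaks), in a model with pomalidomide and GNE-781 as terms. That model takes the GNE-781 effect as the same with and without pomalidomide. With 1 residual degree of freedom against 1525 borrowed from other peaks, the calls rest almost wholly on a spread shared by all peaks, and DESeq2, which estimates the spread differently, called 0 peaks. At an unadjusted p under 0.05 there were 278 peaks with DESeq2 and 6209 with edgeR, of which 3151 were lower and 3058 higher. By chance 2967 would be expected, so DESeq2 lay far below that number and edgeR above it. When 1 library was left out, 15 peaks were called without DMSO, 9 without GNE-781 and 0 without pomalidomide or without the combination (4285 and 4301 at an unadjusted p under 0.05). The fits with 1 library left out used all other libraries of both lines, a model that called 107 peaks with none left out. Each rests on the JJN3 pair that stays whole, which is the same without DMSO and without GNE-781. With every JJN3 library thinned to the depth of the shallowest, 25 peaks fell and 6 rose. With counts scaled by library totals, 94 peaks rose and 95 fell (49.7% higher, against 38.7% with TMM factors).

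The pairs share no library, and each gives its own ratio. All 106 peaks that fell were lower in both pairs, and 66 of the 67 that rose were higher in both, a feature that a test over both pairs favours. The exception was a peak in SRGAP2, a gene with near-identical copies, whose log2 ratio was -0.59 for GNE-781 over DMSO and 2.28 for the combination over pomalidomide. Across all tested peaks the pairs were only loosely related: 55.6% moved the same way, and the correlation across peaks was 0.16 by Pearson and 0.16 by Spearman (n = 59332 peaks, which are not independent replicates). Among 4018 peaks with a mean of at least 100 counts the correlations were 0.27 and 0.23, and 53.1% moved the same way. With a prior count of 2, GNE-781 over DMSO was at least 2-fold lower at 3017 peaks (5.08%) and at least 2-fold higher at 3426 (5.77%). The 3017 lower peaks had a median log2 ratio of -0.06 in the other pair, where 53.4% were lower, and the 3426 higher ones had 0.25, where 68.1% were higher. The combination over pomalidomide was at least 2-fold lower at 1273 peaks (2.15%) and at least 2-fold higher at 2237 (3.77%). In the pair without pomalidomide the medians of these peaks were -0.34, with 67.4% lower, and 0.2, with 62.1% higher. Both pairs passed 2-fold at 186 lower and 301 higher peaks of the 59332 tested. The overlap to be expected from each pair alone was not worked out.

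**Figure D1:**
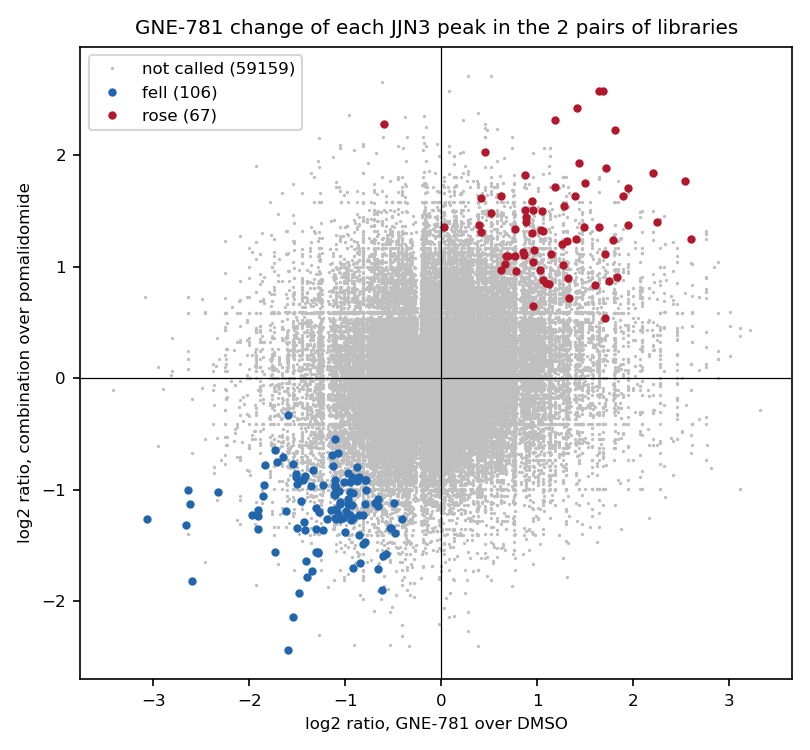
Log2 ratio of each tested JJN3 peak for GNE-781 over DMSO (x axis) and for the combination over pomalidomide (y axis), with a prior count of 2; grey points are peaks that were not called, blue points the 106 that fell and red points the 67 that rose. The blue points lie in the lower left and all but 1 of the red points in the upper right, while the grey points spread around 0 with little slope.

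Distal peaks made up most of the change. Of 25388 tested peaks inside genes, 60 fell (0.236%) and 34 rose (0.134%), and of 18267 intergenic peaks, 38 fell (0.208%) and 26 rose (0.142%). Of 15677 promoter peaks, those within 1000 bp of an annotated start, 8 fell (0.051%) and 7 rose (0.0447%). A distance over 10000 bp from the start of the nearest gene held for 60.4% of the peaks that fell and 74.6% of those that rose, against 53.2% of all tested peaks. The median distance was 15450 bp for peaks that fell and 30066 bp for peaks that rose, against 11998 bp for all. The log2 change also varied with the level of a peak, with a median of 0.18 in the lowest of 10 equal bins of peaks by level and -0.09 in the highest bin, and promoter peaks had a median of -0.04, against 0.02 inside genes and 0.05 between genes. The pairs differed here. For GNE-781 over DMSO the medians were 0.14 in the lowest bin, 0.02 in the highest, 0.03 at promoters, -0.02 inside genes and 0 between genes. For the combination over pomalidomide they were 0.17, -0.17, -0.09, 0.05 and 0.07 in that order. The negative medians at promoters and in the highest bin were thus seen in that pair only. For distal peaks the text names the nearest annotated gene, with no measure of whether the peak acts on it.

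The falls with the lowest adjusted p were at SAA2, SFRP4, GPR160 and FAM20C. A peak inside SAA2, which encodes an acute phase apolipoprotein (chr11:18246504-18247258), had 13.2 CPM with GNE-781 and 14.4 CPM with the combination, against 42.6 CPM with DMSO and 34.2 CPM with pomalidomide. Both libraries with GNE-781 lay well under both without it, at a log2 change of -1.43 ± 0.26 (SE; adjusted p = 0.000595). A peak inside SFRP4, which encodes a secreted antagonist of Wnt ligands (chr7:37992969-37993547), had 21.4 and 9.1 CPM with GNE-781 and the combination, against 59.4 and 23.7 CPM with DMSO and pomalidomide (-1.43 ± 0.26; adjusted p = 0.000595). There the groups came close, since pomalidomide also went with lower levels, at -1.3 in the same model. A peak inside GPR160, an orphan G protein-coupled receptor (chr3:170044709-170045276), had 10.7 and 7.2 CPM with GNE-781 and the combination, against 30.1 and 24.6 CPM with DMSO and pomalidomide (-1.63 ± 0.3; adjusted p = 0.00103). FAM20C encodes a Golgi kinase that phosphorylates secreted proteins. An intergenic peak 17589 bp from its start (chr7:263484-264138) had 44.7 and 27.9 CPM with GNE-781 and the combination, against 87.3 and 66.5 CPM with DMSO and pomalidomide (-1.11 ± 0.21; adjusted p = 0.00116).

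The other named falls were at genes of varied roles. BAI1, now named ADGRB1, is an adhesion receptor that recognises phosphatidylserine on dying cells. The peak inside it (chr8:142475336-142475981) had 55.4 and 34.1 CPM with GNE-781 and the combination, against 109.3 and 73.3 CPM with DMSO and pomalidomide (-1.04 ± 0.2; adjusted p = 0.00194). A peak inside UAP1, whose product makes UDP-N-acetylglucosamine for glycosylation, had 25.2 and 9.6 CPM, against 51.4 and 26.6 CPM without GNE-781 (-1.21 ± 0.25; adjusted p = 0.00429). Near FABP6, a bile acid binding protein of the ileum, the levels were 6.9 and 4.8 CPM, against 19.8 and 18.9 CPM (-1.75 ± 0.36; adjusted p = 0.00384). A peak near FCHSD2, which encodes an F-BAR protein of endocytosis, had 8.2 and 7.7 CPM with GNE-781 and the combination, against 21.3 and 24.6 CPM without it (-1.55 ± 0.32; adjusted p = 0.00392). The steepest fall of the named peaks was at RN7SKP55, a pseudogene of the 7SK RNA, with 2 and 7 counts in the libraries with GNE-781 and the combination, against 17 and 45 with DMSO and pomalidomide (-2.44 ± 0.48; adjusted p = 0.0025). The RN7SKP55 change was -3.28 without pomalidomide or without the combination, and at its smallest -2.09 with 1 library left out. XKR6, of the XK-related membrane proteins, and TRGV1, a variable segment of the T cell receptor gamma locus, fell by 1.64 and 1.2 on the log2 scale. Peaks nearest to GSTA10P, KB-1683C8.1, RP11-367F23.1 and RP11-332J15.1 completed the 15 named falls, with log2 changes of -1.8, -1.49, -1.64 and -1.17. SAA2 and TRGV1 have close relatives, and how reads that map to more than 1 place were treated is not given in the sources used here.

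Several of the peaks that rose lay far from the start of the nearest gene. A peak 253314 bp into TBCK, which encodes a kinase-like protein with a TBC domain (chr4:106062398-106062952), had 16.4 CPM with GNE-781 and 27.9 CPM with the combination, against 3.7 CPM with DMSO and 8.3 CPM with pomalidomide. Both libraries with GNE-781 lay above both without it (1.83 ± 0.33; adjusted p = 0.000595). CREB5 encodes a bZIP transcription factor that binds cyclic AMP response elements. A peak inside it (chr7:28358191-28358822) had 88.1 and 88.4 CPM with GNE-781 and the combination, against 44.8 and 42.5 CPM with DMSO and pomalidomide, and the levels were alike with and without pomalidomide (1.02 ± 0.2; adjusted p = 0.00207). In TMEM232 the levels were 27.1 and 29.3 CPM with GNE-781 and the combination, against 12.5 and 11.2 CPM without it (1.28 ± 0.28; adjusted p = 0.00725). A peak inside MYO1D, a class I myosin, had 5 and 12.5 CPM with GNE-781 and the combination, against 0.7 and 1.9 CPM with DMSO and pomalidomide (2.67 ± 0.58; adjusted p = 0.00841). A peak inside XPNPEP3, a mitochondrial aminopeptidase, held 11 and 18 counts with GNE-781 and the combination, against 2 and 2 with DMSO and pomalidomide (3.06 ± 0.66; adjusted p = 0.00804). The XPNPEP3 change was 2.2 without pomalidomide or without the combination, 3.68 without DMSO and 3.64 without GNE-781. UNC5D, a netrin receptor, had 21 and 14 counts, against 2 and 4 without GNE-781 (2.67 ± 0.59; adjusted p = 0.00892).

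The largest fitted rise rested on very few counts. The peak nearest to CTD-2008N3.1 held 7 and 14 counts with GNE-781 and the combination, against 1 and 1 with DMSO and pomalidomide, a ratio of 12.8 with a 95% exact interval of 3.14 to 113 for counting error. Its fitted log2 change of 3.55 was 2.52 without pomalidomide or without the combination, 4.24 without DMSO and 4.2 without GNE-781. IFT81, outside the named rises, rested on 3 counts without GNE-781, with a ratio of 8.16 (2.42 to 42.9). The peak near SNX31, a sorting nexin, was the only one of the 15 named falls and 15 named rises whose groups overlapped: it had 4.4 CPM with GNE-781 and 22.6 CPM with the combination, against 2.9 CPM with DMSO and 4.8 CPM with pomalidomide. Its call of 1.91 ± 0.43 (adjusted p = 0.0111) came mostly from the pair with pomalidomide, and it was 0.57 without either library of that pair. The remaining named rises, at CTD-2245E15.3, RP11-474J18.1, RP11-346D14.1, RP11-729M20.1, DLG1-AS1, AC011410.1 and NBPF14, had log2 changes between 1.03 and 2.1. RP11-474J18.1, at 1.26, had 0.65 without pomalidomide or without the combination. NBPF14 belongs to a family of near-identical copies, so its count is uncertain.

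**Figure D2:**
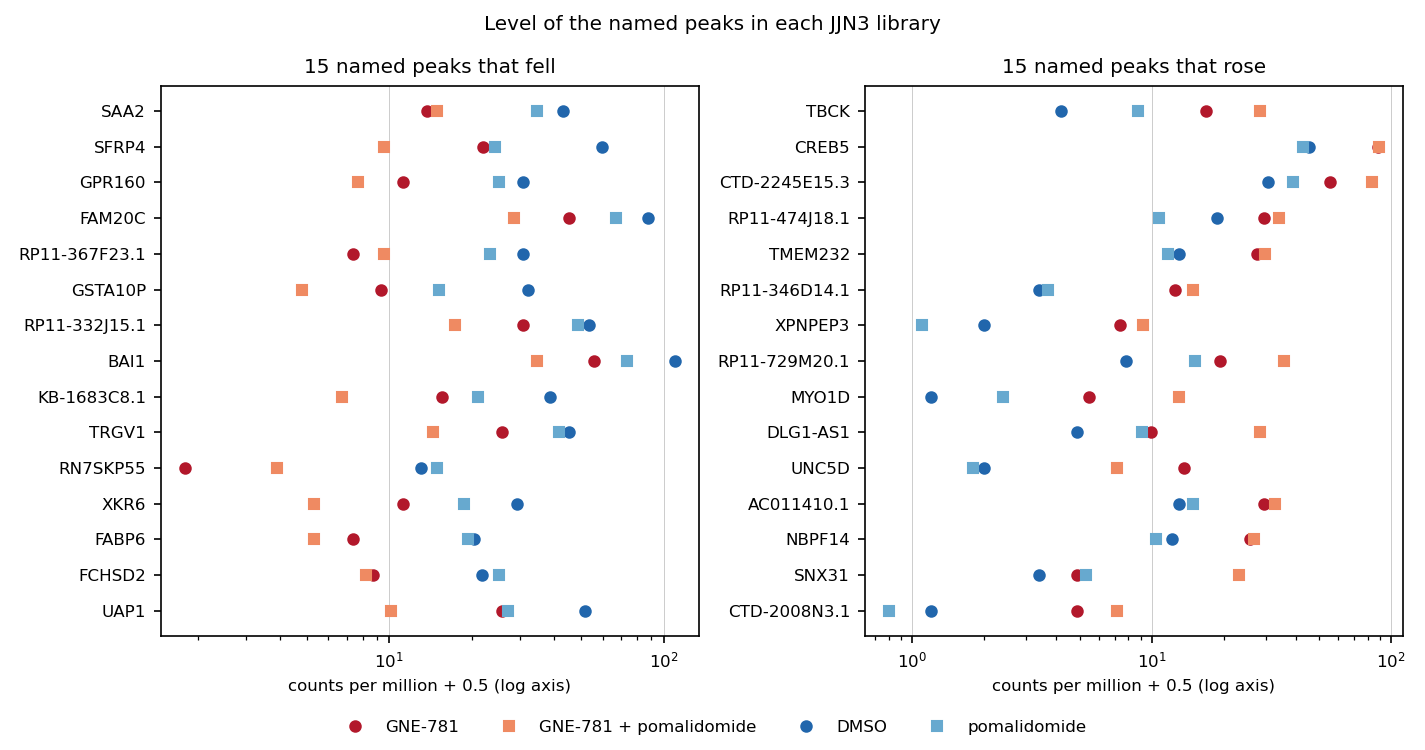
Level of the 15 named peaks that fell (left) and the 15 that rose (right) in each JJN3 library, in CPM plus 0.5 on a log axis; red and orange are GNE-781 and the combination, dark and light blue DMSO and pomalidomide, 1 point a library. Red and orange lie left of both blues at all 15 falls and right of both at the rises except SNX31, where GNE-781 at 4.4 CPM lies left of pomalidomide at 4.8 CPM.

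Promoter peaks that changed were few, and those named here were chosen after their values were seen. SLC29A1 encodes the equilibrative transporter that carries nucleosides and nucleoside drugs into cells. Its promoter peak (chr6:44218818-44219795) had 37.1 CPM with GNE-781 and 41.8 CPM with the combination, against 69 CPM with DMSO and 80 CPM with pomalidomide (-0.92 ± 0.21; adjusted p = 0.011). The groups stood clearly apart there, and all 4 peaks of SLC29A1 had negative log2 changes. The promoter peak of TRIM14, which encodes an adaptor in antiviral signalling, had 12.6 and 10.6 CPM with GNE-781 and the combination, against 27.2 and 24 CPM without it (-1.15 ± 0.29; adjusted p = 0.0317). At TLE1, a Groucho corepressor, 1 and 11 counts with GNE-781 and the combination stood against 17 and 44 with DMSO and pomalidomide (-2.02 ± 0.46; adjusted p = 0.0118). ZBTB6, a zinc finger protein, had 13.2 and 7.2 CPM, against 27.9 and 18.6 CPM without GNE-781 (-1.21 ± 0.31; adjusted p = 0.0358). The other promoter peaks that fell were at XRCC5, TRGV1, RNU6-192P and RP11-109G23.1.

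Among the promoter peaks that rose, TRIM40 had 15.7 and 27.9 CPM with GNE-781 and the combination, against 8.1 and 9.9 CPM without it (1.32 ± 0.31; adjusted p = 0.016). ZNF175, a zinc finger protein, had 19.5 and 29.8 CPM, against 11 and 11.2 CPM without GNE-781 (1.21 ± 0.29; adjusted p = 0.0214). TEF is a bZIP factor of the PAR family, known from circadian regulation. It had 18.3 and 36.5 CPM with GNE-781 and the combination, against 10.3 and 16.6 CPM with DMSO and pomalidomide (1.05 ± 0.27; adjusted p = 0.0401). TNRC18, AC007312.3 and RP11-599B13.8 also rose, with log2 changes between 0.95 and 1.25.

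XRCC5, which encodes the Ku80 subunit that binds broken DNA ends in end joining, was the only gene of the 19 lists with a called peak. The lists, that of end joining genes among them, were chosen with earlier results of these data known. The call at XRCC5 is thus not a find of an independent screen. The called XRCC5 peak (chr2:216113564-216113946) lay 472 bp from the start of its nearest transcript in the deposited annotation. It was classed as promoter by that distance alone, and other starts of the gene were not looked at. The peak held 18 and 8 counts with GNE-781 and the combination, against 46 and 35 with DMSO and pomalidomide. On the CPM scale these were 11.3 and 3.8, against 33.8 and 11.2, so the GNE-781 library met the pomalidomide library and both agents went with lower levels. The GNE-781 change was -1.55 ± 0.34 (adjusted p = 0.00892), beside a change of -1.58 with pomalidomide in the same model. That is the change of a single peak. Summed over all its peaks, XRCC5 was not called, with a change no lower than -0.74. Of the 9 end joining genes, 8 had a negative change of their summed counts, with a median of -0.14, against 12004 of 24624 tested genes and a median of 0.01. Among them DCLRE1C, which encodes the nuclease Artemis, had 33.8 and 29 CPM with GNE-781 and the combination, against 53.5 and 50.8 CPM without it (-0.74 ± 0.2; adjusted p = 0.0563), short of the threshold.

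Summed over all peaks nearest to a gene, 59 of 24624 genes fell (0.24%) and 42 rose (0.171%), and none was on a list. With gene sums the quasi-likelihood test thus called 0 of the plasma cell and myeloma transcription factors, of which 17 of 34 were below 0 with a median of 0 and log2 changes between -0.46 and 0.57; 1 was higher and 2 were lower at an unadjusted p under 0.05. DESeq2 called 0 genes in all, with 125 at an unadjusted p under 0.05. Of the cell cycle genes, 20 of 29 were below 0, with a median of -0.07, 0 called, and 6 lower and 0 higher at an unadjusted p under 0.05, against 1273 lower and 1303 higher of all genes. They were E2F8, PCNA, MCM2, CDKN2A, CCNB2 and E2F7. PCNA, the sliding clamp of DNA replication, had 139 and 109.6 CPM with GNE-781 and the combination, against 167.2 and 148.9 CPM without it (-0.36 ± 0.13; adjusted p = 0.226). E2F8, a repressor of the cell cycle programme, had 19.4 and 14.5 CPM, against 28.6 and 27.8 CPM without GNE-781 (-0.77 ± 0.26; adjusted p = 0.173). The list of acetyltransferase and BET protein genes also took in BRD9, NCOA coactivators and HDAC deacetylases, and EP300 had no entry of its own. Of its tested genes, 6 of 17 were below 0, with a median of 0.06 and 0 called. At an unadjusted p under 0.05, 4 were higher (NCOA3, BRD3, CREBBP and KAT5) and 0 lower.

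The other pathway lists also had 0 called genes and 0 called peaks. Log2 medians of the gene sums were 0 for the IKAROS family and cereblon ligase (6 of 12 below 0; 1 higher and 0 lower at an unadjusted p under 0.05), 0.08 for myeloma survival and MAF target genes (8 of 23; 1 and 0), 0.04 for plasma cell surface and secretory genes (8 of 19; 1 and 1) and -0.02 for the AP-1 and BATF family (7 of 13; 2 and 2). Those of the ETS family (9 of 16 below 0; 1 higher and 3 lower), NF-kB response genes (9 of 17; 1 and 2) and interferon response genes (13 of 27; 2 and 2) were -0.05, -0.09 and 0. Apoptosis and p53 genes had a median of -0.06 (9 of 15 below 0; 0 and 0) and cytosolic ribosomal protein genes one of 0.04 (12 of 29; 3 and 2). The marker lists held 0 called genes as well, with medians of -0.1 for plasma cells, 0.05 for B cells, 0.05 for T and NK cells, 0.31 for myeloid cells, -0.17 for erythroid cells and 0.16 for stromal and endothelial cells. Of their members, 0 to 3 per list were higher and 0 or 1 lower at an unadjusted p under 0.05.

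None of the genes of the drug targets and of plasma cell identity was called. The promoter peak of EP300, annotated to MIR1281 in the deposited table (chr22:41091235-41092788), had 52.9 and 57.7 CPM with GNE-781 and the combination, against 48.4 and 55.3 CPM with DMSO and pomalidomide (0.09 ± 0.2; adjusted p = 0.931). CREBBP had summed levels of 31.3 and 43.5 CPM with GNE-781 and the combination, against 22 and 29.3 CPM without it (0.55 ± 0.22; adjusted p = 0.312). IKZF3, a transcription factor that pomalidomide marks for degradation, had 110.2 and 164.7 CPM with GNE-781 and the combination, against 79.9 and 118.6 CPM with DMSO and pomalidomide. The pairs had like log2 ratios, 0.46 and 0.47, but the groups overlapped across pairs, and the model gave 0.47 ± 0.14 (adjusted p = 0.0846; 0.0426 with cyclic loess scaling). SDC1 had 137.7 and 117.8 CPM, against 187 and 138.8 CPM without GNE-781 (-0.33 ± 0.13; adjusted p = 0.275).

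Of the other plasma cell genes, IRF4, the factor on which myeloma cells depend, had 38.8 and 52.2 CPM with GNE-781 and the combination, against 48.4 and 56.5 CPM with DMSO and pomalidomide (-0.19 ± 0.19; adjusted p = 0.778). MYC, which drives growth, had 147.8 and 110.1 CPM, against 108.5 and 120.2 CPM (0.13 ± 0.14; adjusted p = 0.8), and its pairs went in opposite directions, at 0.44 and -0.13. XBP1, ITGB7, BATF and MAF also had pairs of opposite sign. PRDM1 and XBP1, factors of plasma cell differentiation, had -0.13 ± 0.13 and -0.12 ± 0.28, IKZF1 had -0.21 ± 0.14, and BATF, an AP-1 partner, had -0.15 ± 0.21. CCND2 and ITGB7, known targets of MAF in myeloma, had 0.45 ± 0.4 and 0.05 ± 0.19, and MAF itself -0.07 ± 0.15. The CCND2 value is of 1 peak only. The peak over the RefSeq start of CCND2 (chr12:4273532-4273824) is annotated to CCND2-AS2. It had -0.38 ± 0.35 (adjusted p = 0.77), with pairs at 0.49 and -0.8, and a neighbouring peak of CCND2-AS2 had -0.01 ± 0.22. Within the RefSeq span of MAF, a distal peak (chr16:79316095-79316502) annotated to RNA5SP431 had 9.4 and 11.1 CPM with GNE-781 and the combination, against 30.1 and 17.9 CPM with DMSO and pomalidomide. Its change was -1.13 ± 0.3 (adjusted p = 0.056), and it was singled out after its value was seen. Other peaks in the same span had positive changes of like size that were not called either: 1.56 ± 0.58 at a peak of RP11-679B19.2 (adjusted p = 0.244), 1.11 ± 0.47 at another of RNA5SP431 (adjusted p = 0.34) and 1.04 ± 0.34 at one inside MAF (adjusted p = 0.152). A peak of RP11-467I17.1 in the span had a negative change, -0.85 ± 0.29, also not called (adjusted p = 0.182).

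**Figure D3:**
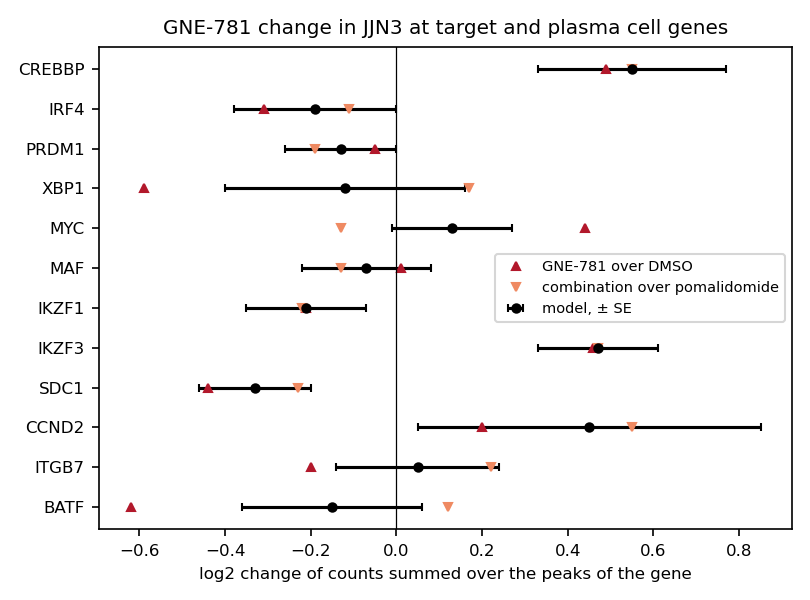
Log2 change with GNE-781 of the counts summed over the peaks of the target gene CREBBP and of plasma cell genes in JJN3; black points and bars are the model with its SE, triangles the ratio of each pair of libraries. CREBBP at 0.55 and IKZF3 at 0.47 lie highest with both pairs together, and the pairs of MYC, XBP1 and BATF lie on either side of 0.

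In several loci many neighbouring peaks moved one way, and the loci are named here after their values were seen. Of the 101 called genes, 32 had at least 4 peaks, of which 21 fell and 11 rose. The share of all tested genes with at least 4 peaks is not given, so the 32 cannot be read as many or few. The loci were picked by their called sums, a choice that itself favours peaks moving one way. TTC34 on chromosome 1, a tetratricopeptide repeat protein, had 16 peaks between positions 2642882 and 2777230, and all 16 were lower in both pairs, with peak changes between -0.98 and -0.24. Their sum was 1500 CPM with GNE-781 and 1048.9 CPM with the combination, against 2433.8 CPM with DMSO and 1394 CPM with pomalidomide. The DMSO library stood far above the other three, GNE-781 lay above pomalidomide, and the model gave -0.55 ± 0.07 (adjusted p = 1.78e-10). When 1 library was left out the change lay between -0.7 and -0.45 and was not called (adjusted p = 0.208 to 0.526). How reads that map to more than 1 place were treated is not given for these peaks either, and its part in the TTC34 levels was not tested. FAM20C, with 6 peaks, had 169 and 145.8 CPM with GNE-781 and the combination, against 303.6 and 213.6 CPM without it (-0.69 ± 0.12; adjusted p = 2.52e-05). GPR160 had 77.6 and 65.2 CPM, against 116.6 and 121.2 CPM without GNE-781, and all 5 of its peaks were lower in both pairs (-0.76 ± 0.15; adjusted p = 0.00448).

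Summed changes were also called at other loci with many peaks. PTPRN2, a receptor-type phosphatase of secretory vesicles, had 51 of 67 peaks lower and 1467.5 and 1028.1 CPM with GNE-781 and the combination, against 1978.4 and 1174.1 CPM with DMSO and pomalidomide. Its change of -0.31 ± 0.07 (adjusted p = 0.0186) was not called with cyclic loess scaling (0.228) or with all 8 libraries in the fit (0.14). CELF4, an RNA binding protein of neurons, had 165.3 and 144.9 CPM with GNE-781 and the combination, against 257.4 and 203.2 CPM without it (-0.56 ± 0.12; adjusted p = 0.00502). PRKAR1B, a regulatory subunit of protein kinase A, had all 7 peaks lower in both pairs (-0.52 ± 0.13; adjusted p = 0.0321). KCNK15-AS1, an antisense RNA, had all 8 peaks higher in the model and 1 of 8 lower in each pair, with 117.7 and 133.3 CPM, against 79.2 and 88.3 CPM without GNE-781 (0.58 ± 0.14; adjusted p = 0.0259). Several falling loci lie near chromosome ends: within 5 Mb of the first or last RefSeq gene of a chromosome lay 22 of the 106 peaks that fell (20.8%) and 6 of the 67 that rose (8.96%), against 10.7% of all tested peaks, a count made after these loci were seen.

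**Figure D4:**
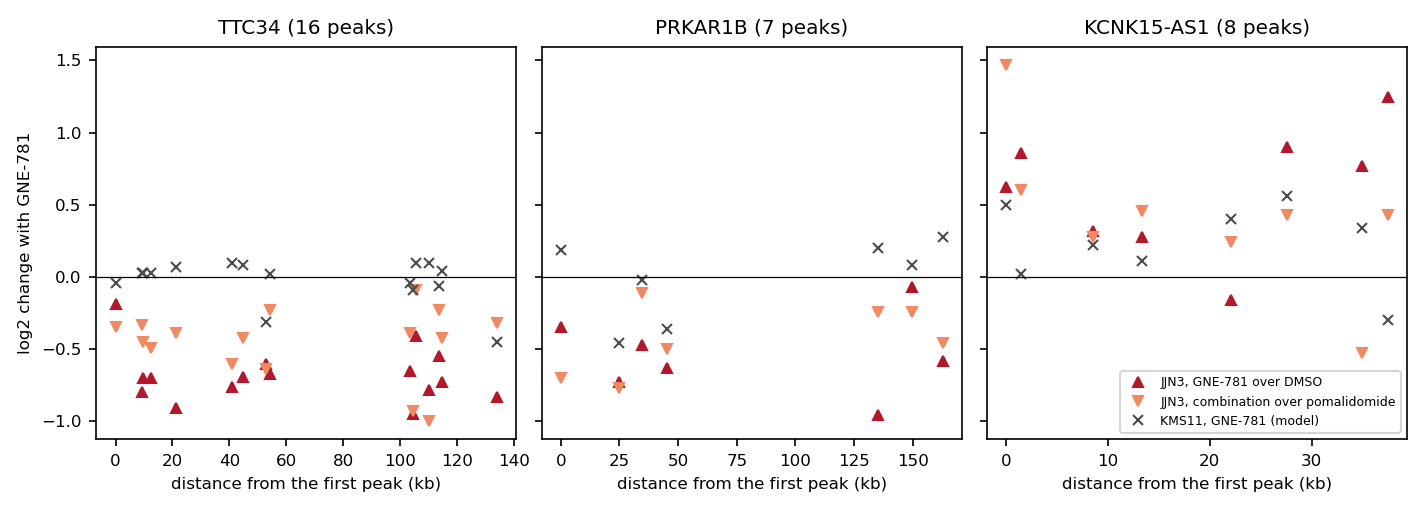
Log2 change with GNE-781 of each peak of TTC34, PRKAR1B and KCNK15-AS1, by distance in kb from the first peak of the gene; triangles are the pairs of JJN3 libraries and crosses the model in KMS11. All JJN3 triangles of TTC34 and PRKAR1B lie below 0, while the KMS11 crosses of TTC34 lie on both sides, 6 of 16 below 0.

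KMS11 gave libraries that the JJN3 test did not use. Of the 106 peaks that fell in JJN3, 103 were tested in KMS11, and 95 of them were lower there, with a median log2 change of -0.46, against 50.1% lower and a median of 0 over all KMS11 peaks. In KMS11 16 of the 103 fell as well, where 1033 of 60898 peaks fell (1.7%), and 35 were lower at an unadjusted p under 0.05, against 8.72% of all peaks. Of the 67 peaks that rose in JJN3, 63 were tested in KMS11, 45 were higher with a median of 0.27, and 1 rose, where 184 of 60898 rose (0.302%). At an unadjusted p under 0.05, 9 of the 63 were higher, against 4.2% of all peaks. XRCC5 changed by -1.54 in KMS11 (adjusted p = 0.000544), VOPP1 by -1.57, KB-1683C8.1 by -1.7 and the named FAM20C peak by -0.75. TBCK was the rise called in both lines, at 0.77 in KMS11 (adjusted p = 0.0337). KMS11 libraries were deeper, at 2981408 to 5435673 counts, so the numbers of calls do not compare the size of the response.

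**Figure D5:**
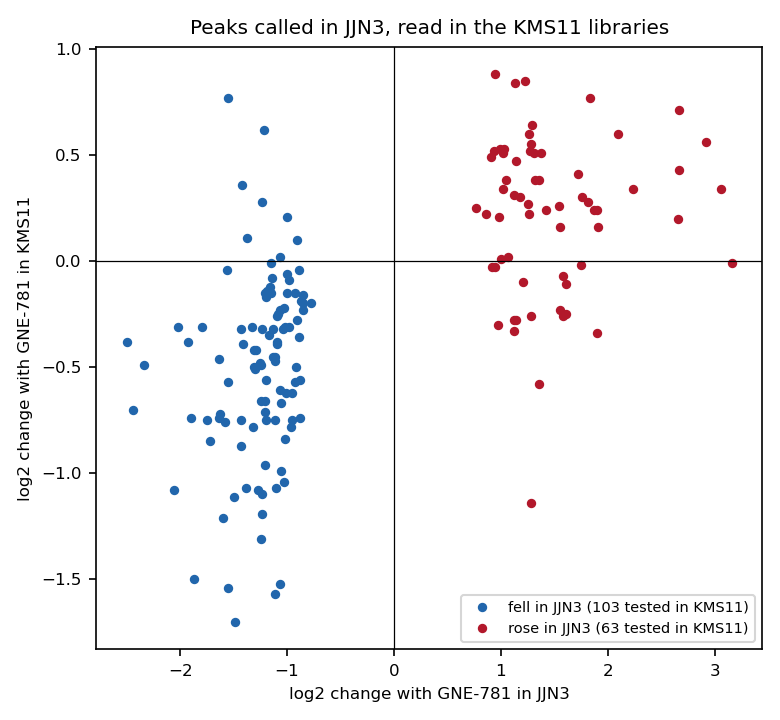
Log2 change with GNE-781 in JJN3 (x axis) and in KMS11 (y axis) of the peaks called in JJN3 and tested in KMS11; blue points fell and red points rose in JJN3. Of the 103 blue points 95 lie below 0 on the KMS11 axis, and of the 63 red points 45 lie above it.

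The difference between the lines was tested as an interaction over all 8 libraries, with 2 residual degrees of freedom. It was called at 6 of 62234 peaks (0.00964%) and at 1 of 25121 genes by summed counts (0.00398%). The 6 peaks were not among the 173 called in JJN3. Of the named peaks, FCHSD2 had a log2 change of 0.77 in KMS11 (difference -2.35, adjusted p = 0.0905) and RP11-729M20.1 one of -0.26 (difference 1.51, adjusted p = 0.0813). TTC34 had a summed change of 0.02 ± 0.1 in KMS11, and its difference of -0.58 ± 0.14 was not called (adjusted p = 0.146). CELF4 had 0.01 ± 0.11 in KMS11, with a difference of -0.58 ± 0.17 (adjusted p = 0.309), and FAM20C -0.57 ± 0.12, with a difference of -0.13 ± 0.18 (adjusted p = 0.951).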

How the data were processed

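The authors deposited 1 table of raw counts, not normalized and all whole numbers, over 62528 union peaks of all 8 libraries, each with its nearest transcript. Per the submitters' processing notes, reads were handled with Bowtie2 2.3.5.1 and SAMtools 1.10 after Trim Galore 0.6.4 and cutadapt 2.5, and MACS2 2.1.1.20160309 and R 4.1.2 are also listed, with the build GRCh38. The treatment of duplicate, mitochondrial and multi-mapping reads, and of the transposase offset, is not given in the sources used here. Copies made by PCR lower the apparent counting error, and a peak set from all libraries favours the deeper ones.

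Peaks averaging at least 2 CPM over the 4 JJN3 libraries were kept (59332; 3196 removed). In R 4.3.3 they were scaled with TMM factors and tested two-sided in edgeR 4.0.16 (quasi-likelihood) with terms for pomalidomide and GNE-781. The labels carry no replicate numbers, and pomalidomide status is the pairing. The common biological coefficient of variation was 0.0998. Each SE was derived as the size of the log2 change over the square root of the quasi-likelihood F statistic. It thus carries the spread shared by all peaks. For gene sums, over 25165 gene entries, edgeR took the spread wholly from all genes together. Pair ratios used a prior count of 2. The line difference used all 8 libraries, and leaving out 1 library used the same fit, where the remaining pair is assumed to vary like the rest. Alternatives were DESeq2 1.42.0, cyclic loess of limma 3.58.1, other scalings and filters, and thinning to the shallowest library with seed 11. The test was tried on simulated counts. Count ratios have intervals for counting error only.

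The text names the 15 peaks of lowest adjusted p that fell and the 15 that rose, with both pairs moving the same way and 1 peak a gene, every called peak at a listed gene, and the target and plasma cell genes. Of 362 listed genes 297 had a peak, 5 of them by an older symbol. The members and lists were chosen with earlier results of these data known. Sequences come from RefSeq, and distal peak sequences were not used here. A few results that fall under these rules are not reported here.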

Additional observations from a re-analysis of the deposited data

Results flagged for a closer look

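The change with GNE-781 differed between JJN3 and KMS11 at 6 peaks and 1 gene by the interaction test of edgeR, and at each the difference was positive, JJN3 minus KMS11. None of the 6 peaks was called in JJN3 alone. At CCNE2, which encodes cyclin E2, a peak inside the gene (chr8:94891121-94891476) had 28.9 CPM with GNE-781 and 15 CPM with the combination in JJN3, against 23.3 CPM with DMSO and 16.3 CPM with pomalidomide. In KMS11 it had 6.8 and 6.9 CPM with GNE-781 and the combination, against 20.7 and 24.2 CPM. The change was 0.09 ± 0.27 in JJN3 and -1.72 ± 0.25 in KMS11, a difference of 1.81 ± 0.37 (adjusted p = 0.0386). At a peak near RP11-317P15.4 the change was 0.6 ± 0.31 in JJN3 and -1.08 ± 0.17 in KMS11, a difference of 1.69 ± 0.35 (adjusted p = 0.0386). A peak in RNF219-AS1 differed by 3.47 ± 0.69 (adjusted p = 0.0304), with 4 and 12 counts with GNE-781 and the combination in JJN3, against 2 and 6 without it, and 16 and 23 in KMS11, against 115 and 66. The peaks at AC093901.1, U8 and ZNF804A differed by 2.75 ± 0.54, 2.5 ± 0.48 and 3.55 ± 0.75 (adjusted p = 0.0304, 0.0304 and 0.0465), and ZNF804A rested on 1 and 3 counts in JJN3 without GNE-781. Summed over its 7 peaks, RP11-587H10.2 had a change of 0.66 ± 0.16 in JJN3 and -0.38 ± 0.13 in KMS11, a difference of 1.04 ± 0.21 (adjusted p = 0.0432).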

How the results depend on the processing

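Of the 173 called peaks, all kept their direction in the edgeR and DESeq2 fits that tested them, except 1 of 173 without pomalidomide or without the combination, but their calls did not hold in all fits. The count was 185 with DESeq2 size factors, 174 with no filter, 189 with total scaling, 224 with cyclic loess, 246 at a mean of at least 5 CPM, 107 with all 8 libraries (103 of them shared), 31 after thinning (28 shared, chosen after seeing the data), and 0 with DESeq2 (278 at an unadjusted p under 0.05) or with no pairing by pomalidomide (3085). It ranged from 0 to 15 with 1 JJN3 library left out, with 4285 to 5412 peaks at an unadjusted p under 0.05. For genes the count was 101, against 117 with DESeq2 size factors or no filter, 108 with total scaling (53.7% higher, against 41.6%), 14 with all 8 libraries, 24 after thinning, 0 with DESeq2 (125 at an unadjusted p under 0.05) and with no pairing (1385), and 0 to 12 with 1 library left out. Calls of the line difference ranged from 1 to 10 for peaks and 0 to 12 for gene sums with 1 library left out. Without pomalidomide, or without the combination, none of the 30 named peaks was called. A prior count of 5 gave 1605 lower and 1668 higher peaks past 2-fold for GNE-781 over DMSO and 569 and 913 for the combination over pomalidomide, where a prior of 0.5 gave 2325 and 3475. With promoters taken as within 2500 bp of a start, 14 of the 106 peaks that fell were promoter peaks, against 8 within 1000 bp. The number of tested peaks within 2500 bp is not given, so the 14 cannot be read as many or few. Gene sums that turned sign with 1 library left out ranged from -0.63 to 0.14 for XBP1, from -0.16 to 0.44 for MYC, from -0.65 to 0.09 for BATF, from -0.17 to 0.01 for MAF and from -0.21 to 0.18 for ITGB7, which was -0.23 after thinning. The cause was not tested. A median of 12 to 27 counts a peak limits what any single peak can show.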
